A study of Mus musculus with 5 samples.

Results

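The genes described here are 39 genes of glycolysis and of the response to low oxygen, out of 17923 genes listed in at least 1 of 5 RNA-seq libraries from mouse thyroid tumor cell lines. They comprise 4 carriers of glucose and lactate, 18 glycolytic enzymes, 3 regulators of the flux through the pathway, 4 hypoxia factors and hydroxylases, and 10 targets of the hypoxia response. They were taken by gene symbol, and the set was drawn up partly because Car9 and Eno2 were low in the libraries labelled BVE-Ctnnb1null. For that reason every difference between the 2 genotypes given for these 39 genes is a description, without a test. All 39 were listed in all 5 libraries, and all 39 passed the filter on low counts.

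All libraries came from lines grown from thyroid tumors driven by BRAFV600E, the kinase mutation most often found in papillary thyroid cancer. The comparison asked how such cells differ when Ctnnb1, the gene for β-catenin, is deleted. The 2 libraries labelled BVE-Ctnnb1wt (wt) carry the mutation alone and were both at passage 20. wt replicate 1 was labelled as grown without thyroid-stimulating hormone (TSH), and wt replicate 2 as grown with it. The 3 libraries labelled BVE-Ctnnb1null (null) are described as carrying the same mutation and the deletion. null replicate 1 is labelled line BVECTN_4 at passage 8 without TSH, null replicate 2 line BVECTN_4A at passage 11, and null replicate 3 line BVECTN_5 at passage 7, with TSH not given for the last 2. The protocol text gives other passage numbers, about 25 for wt and 20 for null, and TSH in the medium of both. The genotypes as labelled therefore differ in passage and in line as well as in the stated deletion, and these cannot be told apart. The TSH labels are mixed in wt and incomplete in null, so TSH cannot be set apart either. The promoter behind the mutation and the deletion, the age of the mice, the oxygen level and the density of the cultures are not given in the sources used here. Total estimated counts were 30432737 and 30713079 for wt and 29929677, 29360002 and 29415980 for null, so that 3 counts are about 0.1 counts scaled to the library total. CPM values below are counts scaled to the library total after TMM normalization, a correction for differences in RNA composition.

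The labels were checked first. Ctnnb1 had an FPKM (fragments scaled to transcript length and library total) of 59.3 and 73.8 in wt and 125, 196 and 118 in null. In CPM the groups overlapped, at 251 and 356 in wt and 418, 572 and 344 in null. A lower level in null was thus seen on neither scale, though the label gives a deletion. The part of the gene deleted is not given in the sources used here and the reason was not tested, so wt and null stand below for the libraries as labelled. The thyroid markers were low or uneven. Nkx2-1, a thyroid transcription factor, had an FPKM of 9.21 and 15.0 in wt and 9.26, 34.8 and 0.26 in null, whereas thyroglobulin (Tg) was at or below 0.86 in every library. Pax8, another thyroid transcription factor, had 0.40 and 0.17 in wt and 18.1, 12.8 and 2.56 in null. Slc5a5, the iodide transporter, had 1.03 and 0.36 in wt and 6.48, 0.05 and 0.14 in null. The summed FPKM of the 9 thyroid markers was 11.6 and 16.5 in wt and 34.1, 48.3 and 3.45 in null.

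The null libraries also differed among themselves in markers of cell type. The summed FPKM of 6 epithelial markers was 1073 and 1742 in wt and 12066, 705.5 and 1204 in null. By summed level Krt7 led this list because of null replicate 1 (5131, against 461 or less elsewhere), while Krt8 led in both wt libraries, and Epcam and Cdh1 were not listed in null replicate 2. The summed FPKM of 8 fibroblast markers was 290.0 and 255.0 in wt and 1.57, 148 and 1312 in null, with Col1a1 the most abundant. Dcn and Thy1 reached 84.7 and 88.5 in null replicate 3 and were at most 0.24 elsewhere. Of 5 leukocyte markers Cd68 alone was listed, at 6.09 and 14.2 in wt and 59.8, 1.00 and 39.9 in null, and 4 endothelial markers summed to at most 0.66. The part of these markers in the values below was not tested. In RNA from a whole culture, fewer cells of a type and less RNA per cell cannot be told apart.

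Glycolysis converts glucose to pyruvate in the cytosol and lactate dehydrogenase turns the pyruvate into lactate, which leaves the cell through monocarboxylate carriers. Tumor cells commonly run this route even when oxygen is present. When oxygen is low, the prolyl hydroxylases of the Egln family no longer mark hypoxia-inducible factor (HIF) for breakdown, and HIF with its partner Arnt raises the transcription of most of these enzymes and of genes such as Car9 and Vegfa by binding sites with the core ACGTG or GCGTG. HIF is controlled mainly through the stability of the protein, so the RNA of Hif1a does not by itself report its activity.

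Promoters are printed to show where these core letters lie. They are those of Car9, Eno2, Slc16a3 and Ankrd37, the 4 genes with the most negative fitted log2 fold changes of the set, and that of Ldha, which was added as an example of a window with several matches. The sequences are the bases just before the annotated start in RefSeq (GRCm38.p6), read 5′ to 3′ on the strand of the gene, and capitals mark ACGTG or its reverse complement CACGT.
Car9 (chr4:43506926-43507025, plus strand): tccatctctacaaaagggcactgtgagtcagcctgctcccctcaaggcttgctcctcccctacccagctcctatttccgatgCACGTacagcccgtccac
Ankrd37 (chr8:45999851-45999950, minus strand): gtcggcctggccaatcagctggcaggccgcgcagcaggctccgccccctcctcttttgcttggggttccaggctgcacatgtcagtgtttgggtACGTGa
Slc16a3 (chr11:120948967-120949066, plus strand): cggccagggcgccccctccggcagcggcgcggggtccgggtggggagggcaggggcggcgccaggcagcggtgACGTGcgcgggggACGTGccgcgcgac
Ldha (chr7:46845654-46845803, plus strand): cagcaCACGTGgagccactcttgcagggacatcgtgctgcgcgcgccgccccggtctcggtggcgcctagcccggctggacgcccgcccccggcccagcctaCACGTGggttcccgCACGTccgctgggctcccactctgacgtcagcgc
Eno2 (chr6:124769674-124769773, minus strand): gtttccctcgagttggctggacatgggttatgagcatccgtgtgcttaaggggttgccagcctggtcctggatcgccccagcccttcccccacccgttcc
The match begins 18 bases before the start in Car9 and 6 bases before it in Ankrd37. Slc16a3 holds a pair, 27 and 14 bases before the start. Ldha holds 3 places, of which those 145 and 48 bases before the start read as ACGTG on both strands and were counted from each. The bases after this Ldha start were not found in the GENCODE M21 transcripts of the gene, so its distances hold for the RefSeq start only. In the stretch of Eno2 neither ACGTG nor CACGT occurs, which says only that these letters are not in this window.

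Windows from 250 bases before to 50 bases after the start were at hand for 36 of the 39 genes, all but Slc2a3, Epas1 and Ndrg1. ACGTG on either strand was found in 54.0% of their 50 windows, against 25.0% of the 13391 windows of all genes tested. GCGTG on either strand was found in 58.0% of their windows, against 50.1%. One or the other was present in 32 of the 36 genes (88.9%), against 67.5% of all genes tested, and the genes without either were Car12, Eno2, Gpi1 and Tpi1. These are matches of letters and not mapped binding sites, and since the genes were picked as hypoxia targets the higher share is a description.

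Between the genotypes, most of the 39 genes were lower in the null libraries. The fitted log2 fold change (null minus wt, edgeR) was below 0 for 32 of the 39 and above 0 for 7, with a median of -1.52, whereas over all 13240 genes tested the median was 0.29 and 40.7% were below 0. All 3 null libraries lay below both wt libraries in CPM for 20 genes, beside 17.3% of all genes tested. They lay above both for 3 genes, beside 22.6% of all genes. In FPKM these counts were 16 and 3, beside 7.22% and 35.9%. Because the set was drawn up on this contrast, nothing is read from these shares. The sign of 9 genes changed under another scaling, filter or choice of libraries, and these were Slc2a1, Slc2a3, Slc16a1, Hk1, Pfkm, Pfkfb3, Egln1, Vegfa and P4ha2. The enzymes had a median of -1.85 and the targets of -1.37, while the carriers had 0.10, the regulators of flux -0.06 and the factors and hydroxylases 0.35. The map of all 39 genes by library shows this as a band of high values in wt replicate 2 across the enzymes.

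**Figure D1:**
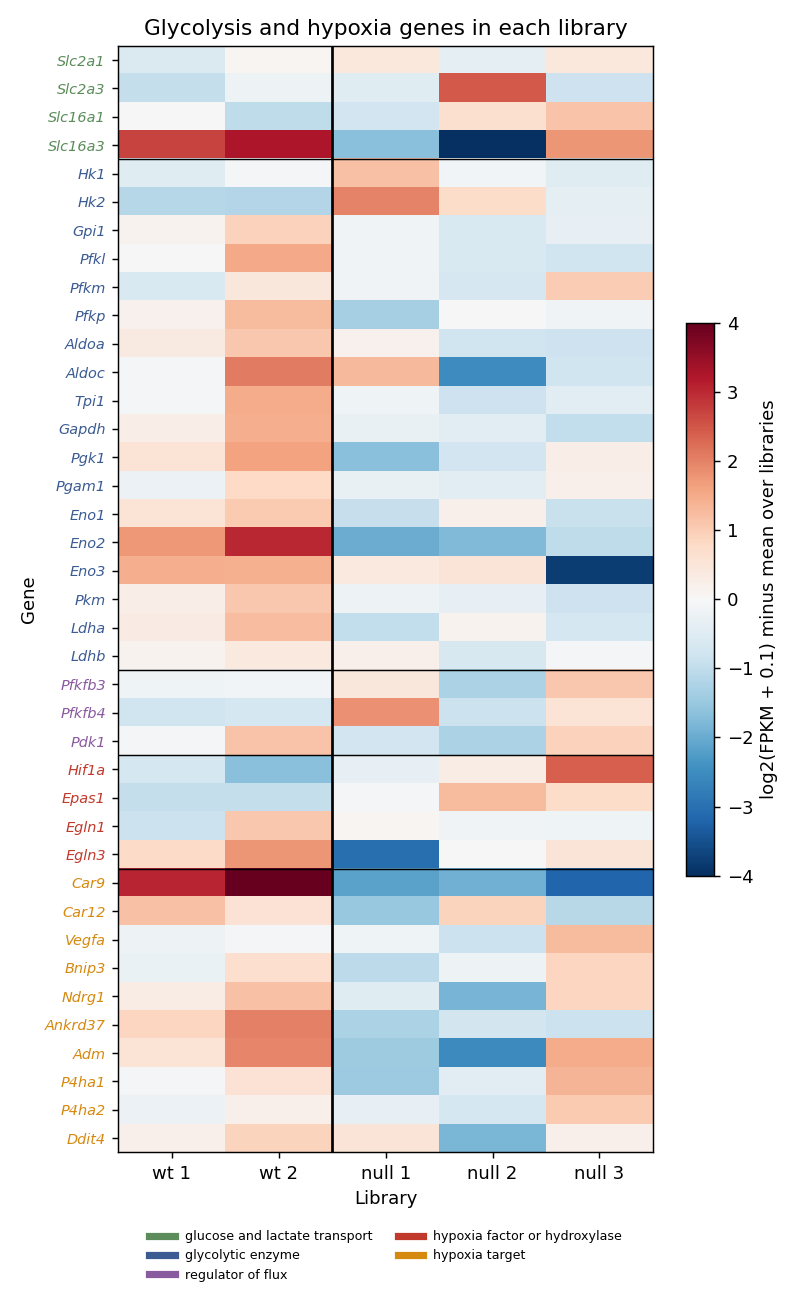
Each row is 1 of the 39 genes and each column 1 library, and the colour gives log2(FPKM + 0.1) minus the mean of that gene over the 5 libraries, cut at 4 in either direction. The gene names are coloured by role, and the highest FPKM was in wt 2 for 23 of the 39 genes and in null 3 for 9.

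Car9 and Eno2, on which the set was partly chosen, had the most negative fitted values in the edgeR fit. Car9, a carbonic anhydrase of the cell surface that handles the acid made by glycolysis, had an FPKM of 17.9 and 38.99 in wt and 0.39, 0.47 and 0.14 in null, from 1073 and 2369 counts against 23, 27 and 8. The groups were far apart, and the mean FPKM was 85.3-fold higher in wt (log2 fold change -7.02 ± 0.81, SE). The value was -6.31 without wt replicate 2 and -4.37 with limma on log2(FPKM + 1). Eno2, the enolase first known from neurons, had an FPKM of 32.7 and 78.8 in wt and 2.35, 2.75 and 4.77 in null. The mean was 16.9-fold higher in wt (-4.72 ± 0.62). For Eno2 the value was -5.35 without wt replicate 1, -3.89 without wt replicate 2 and -3.64 with limma on log2(FPKM + 1). Its 3 null values lay within 2.03-fold of each other. Of the neuroendocrine markers, Syp had 2.07 and 1.57 in wt and 0.12, 0.11 and 0.08 in null, and Calca 0.73 and 0.56 in wt and 0.37, 0.29 and 0.43 in null. Chga and Scg2 were highest in null replicate 1, at 0.74 and 0.13. The 4 neuroendocrine markers with values summed to 2.85 and 2.15 in wt and 1.36, 0.42 and 0.54 in null, and the part of such cells in the values of Eno2 was not tested.

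**Figure D2:**
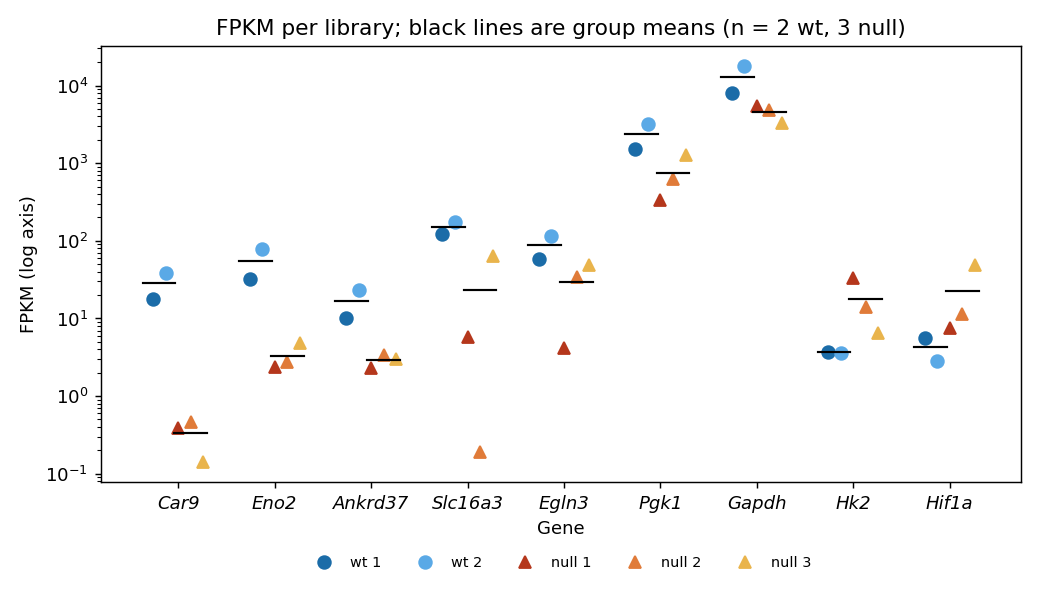
FPKM on a log axis for 9 genes, with circles for the wt libraries, triangles for the null libraries and black lines for the group means (n = 2 wt, n = 3 null). Car9, Eno2, Ankrd37, Slc16a3, Egln3, Pgk1 and Gapdh were lower in every null library than in both wt libraries, and Hk2 and Hif1a were higher.

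Among the carriers, the lactate exporter Slc16a3 (MCT4) differed most. Its FPKM was 122 and 176 in wt and 5.72, 0.19 and 63.6 in null (-3.33 ± 1.70). All null values were below wt, but they spanned 335-fold, and null replicate 2 rested on 14 counts. The log2 fold change was -6.23 without null replicate 3 and -4.94 with limma on log2(FPKM + 0.1), in both cases beyond that of Eno2. Slc16a1 (MCT1), which moves lactate either way, had 9.91 and 4.92 in wt and 5.91, 15.8 and 22.1 in null, and the groups overlapped. Slc16a3 thus made up 92.5% and 97.3% of the summed FPKM of both lactate carriers in wt, and 49.2%, 1.19% and 74.2% in null. Slc2a1, the basal glucose transporter GLUT1, had 35.2 and 55.5 in wt and 69.5, 40.6 and 70.0 in null, with overlapping groups. Its log2 fold change was -0.19 ± 0.50, so the direction depended on the scale, with the mean FPKM higher and the fitted value lower in null. Slc2a3 (GLUT3) stayed low, at 0.41 and 0.75 in wt and 0.61, 5.36 and 0.46 in null, and null replicate 2 alone stood out.

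Gapdh held the highest level of all 39 genes in every library. Gapdh, the dehydrogenase that makes NADH, had an FPKM of 7899 and 17969 in wt and 5377, 4826 and 3313 in null (-2.13 ± 0.51). Pgk1, which makes the first ATP of the pathway, had 1541 and 3186 in wt and 334, 622 and 1270.0 in null (-2.32 ± 0.64). The log2 fold change of Pgk1 was -1.64 without wt replicate 2 and -2.96 without null replicate 3. The groups did not overlap for either gene, and the ratio of wt replicate 2 to wt replicate 1 was larger than that of wt replicate 1 to the highest null library. Pgam1, the mutase that follows, had 516 and 1042 in wt and 492, 436 and 693 in null, overlapping in FPKM but not in CPM. Eno1, the widely used enolase, had 2629 and 3687 in wt and 939.9, 2055 and 963 in null (-1.88 ± 0.48), without overlap. Eno3, the enolase of muscle, had 358 and 349.9 in wt and 169, 184 and 9.21 in null (-2.12 ± 1.04), so that null replicate 3 stood apart. The summed FPKM of the skeletal muscle markers was at most 5.33, in null replicate 3, where Des had 4.24, and Myog was not listed. The part of muscle-like cells in the values of Eno3 was not tested.

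Eno1b, a near-identical copy of Eno1 that is not among the 39 genes and was looked up after its values were seen, had 1163 and 1836 counts in wt and 8 in null replicate 1, and was not listed in the other null libraries. The estimated counts of such copies depend on how reads were divided between them. Eno1b carried at most 33.1 FPKM beside 2629 or more for Eno1 in wt. Processed copies of Gapdh, Pgk1, Ldha and Tpi1 are also known in the mouse genome, so their counts are uncertain in the same way.

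Of the hexokinases, which trap glucose in the cell, Hk2 was higher in null. Hk2, the hexokinase induced in many tumors, had 3.74 and 3.64 in wt and 33.4, 14.2 and 6.43 in null (1.75 ± 0.78), and was the only enzyme whose null libraries all lay above wt. Without null replicate 1 the log2 fold change was 0.81, and in CPM null replicate 3 (29.7) lay just above wt replicate 2 (28.0). Hk1, the constitutive form, had 41.0 and 54.9 in wt and 130.5, 53.7 and 41.4 in null, with overlap. Hk2 formed 8.35% and 6.22% of the summed hexokinase FPKM in wt and 20.4%, 20.9% and 13.5% in null, so Hk1 remained the larger share in each library. Gpi1, the isomerase of the next step, had 462 and 796 in wt and 385, 276 and 335 in null (-1.52 ± 0.45).

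Of the phosphofructokinases, which carry out the committed step, Pfkl had 70.9 and 202 in wt and 63.8, 46.1 and 40.5 in null (-2.06 ± 0.59). Pfkp had 37.8 and 80.9 in wt and 13.2, 34.0 and 30.4 in null (-1.85 ± 0.58). Pfkm had 29.8 and 62.6 in wt and 41.3, 28.6 and 92.6 in null (-0.41 ± 0.65). Thus Pfkl and Pfkp were lower in each null library whereas Pfkm overlapped. The share of Pfkm in their summed FPKM was 21.5% and 18.1% in wt and 34.9%, 26.3% and 56.6% in null. Aldoa, the main aldolase, had 2284 and 3756 in wt and 1994, 1017 and 1005 in null (-1.75 ± 0.53). Aldoc, the aldolase of brain, varied widely at 5.11 and 22.6 in wt and 13.2, 0.86 and 3.03 in null (-1.85 ± 1.19). Its log2 fold change was -3.58 without null replicate 1 and -0.35 without wt replicate 2. Tpi1, which interconverts the triose phosphates that aldolase makes, had 865 and 2527 in wt and 807, 513 and 657 in null (-1.98 ± 0.58).

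**Figure D3:**
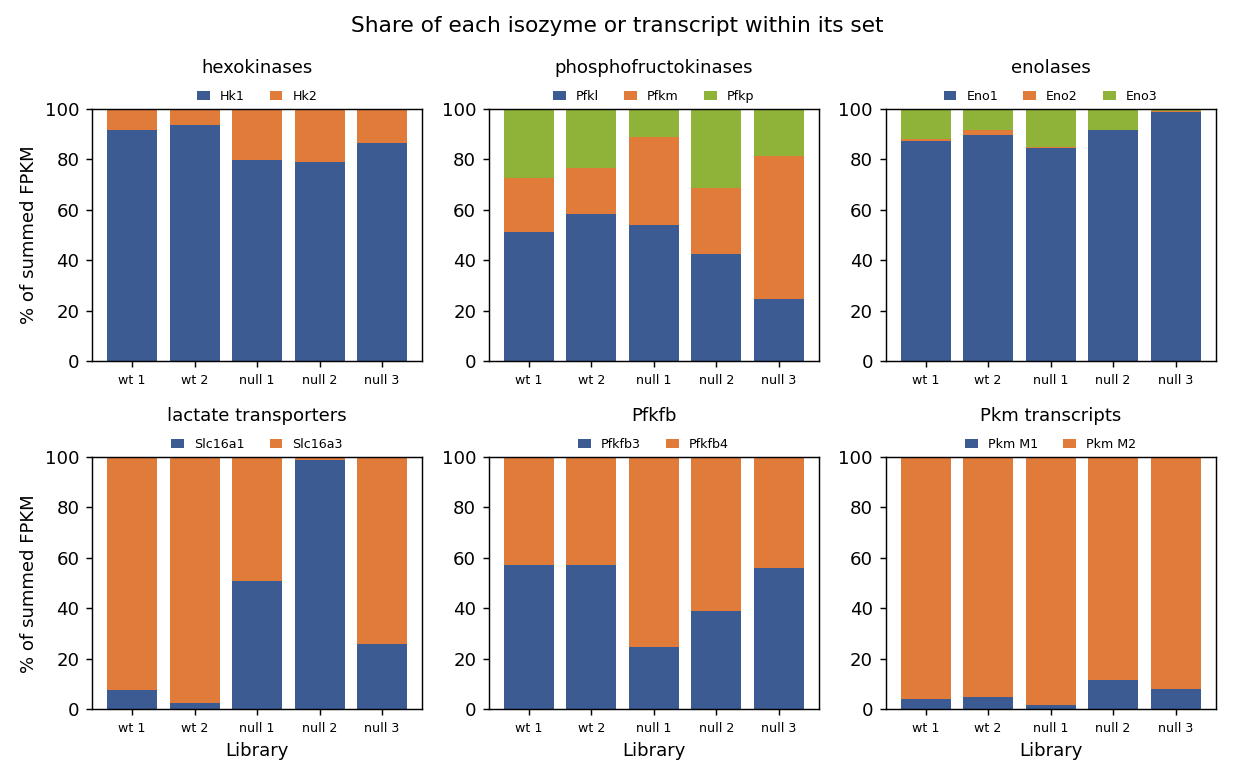
Stacked bars give the share of each isozyme, or of each Pkm transcript, in the summed FPKM of its set (in percent) for the 5 libraries. The share of Slc16a3 is 1.19% in null 2, the share of Pfkm is 56.6% in null 3, and the M1 transcript of Pkm has at most 11.7%.

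Pyruvate kinase ends the pathway. Pkm had 2362 and 4126 in wt and 1684, 1562 and 1104 in null (-1.76 ± 0.45), without overlap. It makes a pair of proteins by the choice of 1 of 2 exons of equal length: M2, the form of proliferating cells and tumors, and M1, the form of adult muscle and brain. Both exons are shown because the share of the transcripts rests on them. They are exon 9 of their transcripts, 167 bases each, from GRCm38, and capitals mark the 64 positions at which they differ (61.7% identity).
Pkm M1 exon (chr9:59675029-59675195, plus strand): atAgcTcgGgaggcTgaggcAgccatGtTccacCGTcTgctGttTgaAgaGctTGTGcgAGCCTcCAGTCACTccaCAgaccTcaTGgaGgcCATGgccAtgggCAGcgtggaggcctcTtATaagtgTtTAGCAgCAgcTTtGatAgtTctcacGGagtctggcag
Pkm M2 exon (chr9:59675568-59675734, plus strand): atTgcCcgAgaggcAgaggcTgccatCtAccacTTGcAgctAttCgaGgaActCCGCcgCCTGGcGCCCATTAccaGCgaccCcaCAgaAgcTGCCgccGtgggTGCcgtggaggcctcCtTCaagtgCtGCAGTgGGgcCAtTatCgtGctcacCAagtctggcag
The M1 transcript took 4.2% and 4.99% of the summed Pkm FPKM in wt and 1.63%, 11.7% and 8.18% in null. M2 therefore dominated in all libraries, and the M1 share of null replicate 1 was below and that of null replicates 2 and 3 above both wt libraries. Ldha, which makes lactate, had 1535 and 2828 in wt and 611, 1329.8 and 735 in null (-1.92 ± 0.50). Ldhb, the form that favours the return to pyruvate, had 56.1 and 67.3 in wt and 58.2, 32.7 and 48.1 in null (-0.99 ± 0.46). Ldhb remained below 9% of the pair, with 8.69% in null replicate 1 as the highest share.

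Together the 18 enzymes took 3.45% of all counts in wt replicate 1 and 6.65% in wt replicate 2, but 2.20%, 2.19% and 1.78% in the null libraries. In CPM 14 of the 18 enzymes were lower in every null library than in both wt libraries, beside 17.3% of all genes tested, and in FPKM 12, beside 7.22%. The 14 were Gpi1, Pfkl, Pfkp, Aldoa, Tpi1, Gapdh, Pgk1, Pgam1, the 3 enolases, Pkm, Ldha and Ldhb.

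For the 3 regulators of flux the groups overlapped. Pfkfb3, which makes the activator of phosphofructokinase, had 4.73 and 4.94 in wt and 7.28, 2.13 and 11.3 in null. Pfkfb4, a relative of it, had 3.52 and 3.70 in wt and 22.2, 3.32 and 8.96 in null (1.14 ± 0.85, but 0.08 without null replicate 1). Pdk1, a kinase that inhibits pyruvate dehydrogenase in mitochondria, had 13.6 and 30.9 in wt and 8.32, 5.87 and 27.0 in null. Its log2 fold change was -1.34 ± 0.76, but -0.56 without wt replicate 2 and -2.29 without null replicate 3. null replicate 2 was the lowest library for each of the 3 regulators.

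Hif1a and Epas1, the genes of the HIF α subunits, had their higher values in null. Hif1a had an FPKM of 5.67 and 2.87 in wt and 7.48, 11.4 and 49.5 in null (1.83 ± 0.89), and null replicate 3 stood far above the rest. Without that library the log2 fold change was 0.56 ± 0.54, and in CPM null replicate 1 (33.4) was level with wt replicate 1 (32.8). Epas1, the gene of HIF-2α, was at the floor in wt with 3 and 4 counts and had 20, 74 and 46 counts in null, and no fold is given for so few counts. Egln1, the main oxygen sensor, had 13.4 and 51.7 in wt and 25.7, 22.2 and 21.7 in null, and the wt values enclosed all null values. Egln3, a hydroxylase that HIF itself induces, had 59.0 and 117 in wt and 4.19, 34.4 and 49.0 in null (-2.26 ± 0.91), without overlap.

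Among the 10 targets the fitted value was below 0 for all, though above 0 under another setting for Vegfa and P4ha2, and 4 were lower in every null library in CPM, namely Car9, Car12, Ankrd37 and Ddit4, beside 17.3% of all genes tested. In FPKM these were 2, Car9 and Ankrd37, beside 7.22%. Ankrd37 had an FPKM of 10.2 and 23.0 in wt and 2.29, 3.39 and 3.04 in null (-3.15 ± 0.65), and its null values lay within 1.48-fold of each other. Car12, a second carbonic anhydrase of the surface, had 7.39 and 4.84 in wt and 1.05, 6.01 and 1.44 in null, so null replicate 2 was within the wt range in FPKM. Adm, the peptide adrenomedullin, had 15.1 and 39.8 in wt and 3.77, 1.66 and 28.97 in null, with null replicate 3 between the wt libraries.

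The other targets overlapped in FPKM, and null replicate 3 was often among the highest libraries. Vegfa, the angiogenic growth factor, had 25.8 and 28.5 in wt and 26.3, 16.4 and 72.0 in null. P4ha1, a prolyl hydroxylase that modifies collagen, had 68.2 and 106 in wt and 26.1, 53.8 and 182 in null. Its paralog P4ha2 had 43.3 and 58.9 in wt and 40.3, 30.8 and 106 in null. These 3 genes were highest in null replicate 3, the library that also had the highest Col1a1 (161 and 118 in wt, 1.11, 104 and 570.5 in null), and the part of collagen-making cells in these values was not tested. Bnip3, which serves the removal of mitochondria, had 29.1 and 55.4 in wt and 16.9, 30.1 and 63.6 in null. Ndrg1, a protein induced by stress, had 73.8 and 134 in wt and 42.8, 16.3 and 107 in null, and Ddit4, an inhibitor of mTORC1, had 57.4 and 91.2 in wt and 71.4, 13.8 and 57.6 in null. Both were lowest in null replicate 2.

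Taken library by library, the null lines did not share one pattern. Relative to the mean of the wt libraries on a log2(CPM + 0.1) scale, the median of the enzymes was -1.35, -1.62 and -1.97 in null replicates 1 to 3, whereas the median of the targets was -1.95, -2.07 and -0.46. null replicate 3 thus had the lowest median for the enzymes and the highest for the targets. Over all genes tested the medians were 0.14, 0.05 and 0.16. Of the 39 genes, 16, 22 and 13 were at least 2-fold below both wt libraries in null replicates 1, 2 and 3, beside 16.0%, 16.7% and 15.0% of all genes. Those at least 2-fold above both numbered 3, 3 and 2, beside 23.2%, 21.7% and 23.3%. Without null replicate 3 the log2 fold change of Adm went from -1.92 to -3.97, of P4ha1 from -0.64 to -1.77 and of Vegfa from -0.11 to -0.94. Without null replicate 2 that of Slc2a3 went from 1.23 to -0.78 and of Car12 from -1.71 to -2.93. Single null libraries thus set the size of these differences. The 3 null libraries spanned 4-fold or more for 16 of the 39 genes, beside 32.2% of all genes.

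**Figure D4:**
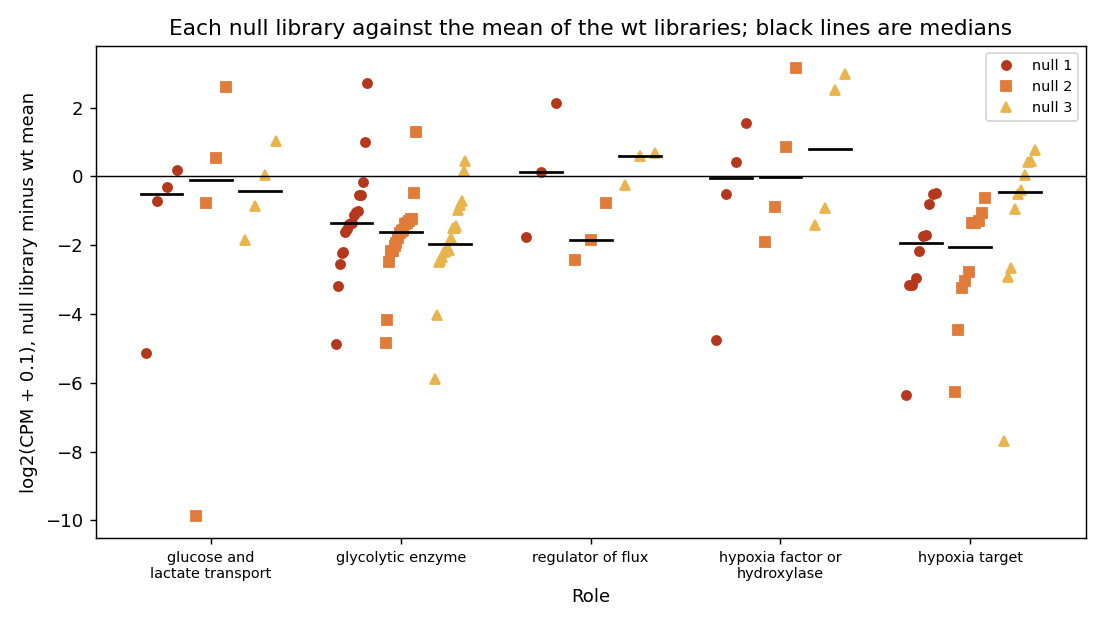
Each point is 1 of the 39 genes in 1 null library, as log2(CPM + 0.1) minus the mean of the wt libraries, grouped by role, with black lines at the medians. The medians of the hypoxia targets are -1.95 and -2.07 in null 1 and null 2 and -0.46 in null 3, and the lowest point is Slc16a3 in null 2.

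The wt libraries differed from each other as well. Both entered the contrast on which the genes were chosen, so this too is a description. By their labels they are 1 library without TSH and 1 with it, although the protocol text gives TSH for both. There is thus no replicate and no test, and TSH cannot be told apart from any other difference between the cultures. In CPM 36 of the 39 genes were higher and 3 lower in wt replicate 2, beside 47.7% and 50.8% of all genes tested, and 20 were at least 2-fold higher, beside 7.35% of all genes tested. None was at least 2-fold lower, beside 8.4% of all genes. In FPKM 14 were at least 2-fold higher, beside 3.88%, and none was 2-fold lower, beside 9.0%. In CPM the 18 enzymes were all higher in wt replicate 2, by a median of 2.21-fold, and 11 of them by 2-fold or more, whereas in FPKM 9 were past 2-fold and Hk2 and Eno3 were slightly lower. The ratio in CPM was 5.08 for Aldoc, 3.35 for Tpi1, 3.27 for Pfkl, 2.61 for Gapdh and 2.37 for Pgk1. Outside the enzymes it was 4.42 for Egln1, 3.02 for Adm, 2.61 for Pdk1, 2.58 for Ankrd37 and 2.51 for Car9.

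In CPM the genes that were lower in wt replicate 2 were Slc16a1 (ratio 0.569), Hif1a (0.581) and Car12 (0.752). Of the 10 members averaging 100 FPKM or more over the 5 libraries 6 were at least 2-fold higher and none 2-fold lower, beside 6.99% and 2.41% of the 830 genes at that level. In CPM wt replicate 2 was the highest of all 5 libraries for 27 of the 39 genes and for 16 of the 18 enzymes, beside 16.2% of all genes tested. In FPKM it was the highest for 23 and for 14, beside 6.03% of all genes. The distance between the genotypes therefore depends on which wt library is taken. The median log2 fold change of the 39 genes was -0.84 against wt replicate 1 alone and -1.93 against wt replicate 2 alone. Among the enzymes, leaving out wt replicate 2 moved the log2 fold change of Pfkl from -2.06 to -1.06. It also moved that of Tpi1 from -1.98 to -0.95, of Pfkp from -1.85 to -1.15 and of Gapdh from -2.13 to -1.38. It moved that of Pgk1 from -2.32 to -1.64 and that of Aldoc from -1.85 to -0.35. Outside the enzymes it moved that of Egln1 from -1.13 to 0.22, of Egln3 from -2.26 to -1.62 and of Ankrd37 from -3.15 to -2.40.

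**Figure D5:**
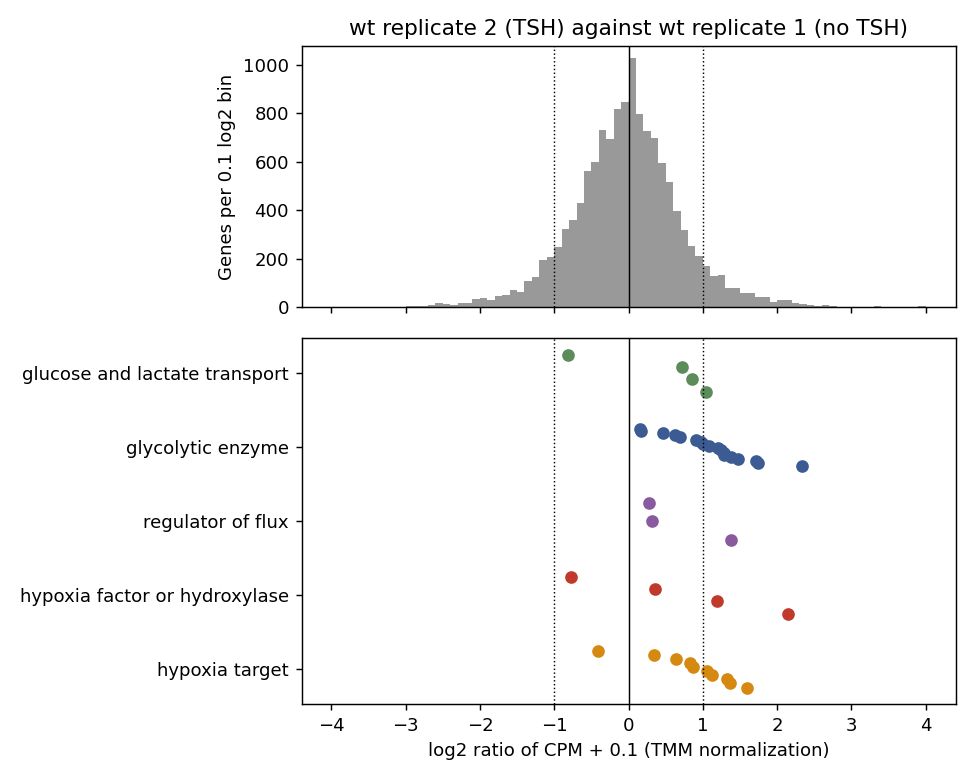
The upper panel counts all 13240 genes tested by their log2 ratio of wt replicate 2 to wt replicate 1 in CPM + 0.1. By label wt replicate 2 was grown with TSH and wt replicate 1 without it. Values past 4 are placed in the end bins, and the lower panel gives the 39 genes by role. Dotted lines mark 2-fold, 20 of the 39 genes lie past the right line and none past the left.

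Genes of the same routes that are not among the 39 were taken from a list of 88, of which 86 were listed and 74 tested. Their median log2 fold change was -0.08, with 36 above and 38 below 0, beside 0.29 over all genes tested. By edgeR with Benjamini-Hochberg adjustment over all genes none of them passed 0.05 (lowest adjusted p 0.192), as none of the 13240 genes did (0.0%, lowest 0.0845). At an unadjusted p under 0.05, 1 was higher and 6 lower in null, beside 12.4% and 6.07% of all genes. DESeq2 called 0 higher and 1 lower, beside 8.41% and 3.68%, and limma called 0 in either direction, beside 0.00841% and 0.0421%. These p-values measure the spread between 3 null lines and 2 wt libraries of the same name and passage. The null lines BVECTN_4 and BVECTN_4A have similar names, and whether they are independent of each other was not tested.

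By group, other hypoxia targets had 3 of 27 lower and 0 higher at an unadjusted p under 0.05, and the factor partners and regulators 0 of 7 lower and 1 higher. The pentose phosphate pathway had 1 of 7 lower, gluconeogenesis and glycogen 1 of 10 lower, the other isozymes and sugar transporters 1 of 11 lower, and pyruvate entry to mitochondria 0 of 12 in either direction. Over all genes tested 6.07% were lower and 12.4% higher at that p, so nothing is read from counts of 0 or 1 in groups of this size. Arnt2, a partner of HIF, had an FPKM of 0.96 and 1.17 in wt and 3.53, 9.26 and 3.85 in null (1.76 ± 0.63, edgeR adjusted p 0.229). Arnt itself, chosen here after its values were seen, had 2.97 and 3.44 in wt and 6.42, 9.73 and 22.5 in null (1.39 ± 0.64, edgeR adjusted p 0.295). Under the alternative fits its log2 fold change lay between 0.71 and 1.81. Higd1a, a mitochondrial protein induced by low oxygen, had 20.0 and 45.0 in wt and 8.44, 8.80 and 18.2 in null (-2.10 ± 0.60, edgeR adjusted p 0.192). It was the 1 gene of the list that DESeq2 called, with an adjusted p of 0.0178.

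Bsg, the chaperone that brings lactate carriers to the surface, had 1249 and 1902 in wt and 1096, 522 and 984 in null (-1.45 ± 0.50, edgeR adjusted p 0.221). Pck2, the mitochondrial carboxykinase of gluconeogenesis, had 128 and 63.2 in wt and 33.2, 14.6 and 63.5 in null (-1.92 ± 0.66, edgeR adjusted p 0.221). The groups did not overlap in CPM for either gene, but for Pck2 they overlapped in FPKM. Mif, a cytokine, had 975 and 1882 in wt and 1042, 540.4 and 702 in null, and also overlapped in FPKM alone (-1.50 ± 0.54, edgeR adjusted p 0.229). Plod1, which modifies lysine in collagen, had 48.6 and 54.5 in wt and 9.13, 27.6 and 39.2 in null (-1.65 ± 0.60, edgeR adjusted p 0.231). None of these differences passed the edgeR threshold. Without wt replicate 2 the log2 fold change was -1.34 for Higd1a and -0.91 for Mif, without null replicate 2 it was 1.13 for Arnt2, and without null replicate 3 it was -2.55 for Pck2.

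In the pair of wt libraries, of the 74, 46 were higher in wt replicate 2, 13 by at least 2-fold and 4 lower by at least 2-fold, with a median log2 ratio of 0.25. Over all genes tested 47.7% were higher, 7.35% and 8.4% were past 2-fold upward and downward, and the median was -0.01. The other hypoxia targets had 6 of 27 past 2-fold upward (Bhlhe40, Fam162a, Higd1a, Lox, Mif and Mxi1) and 4 downward (Car6, Rora, Stc2 and Wsb1). Gluconeogenesis and glycogen had 4 of 10 past 2-fold upward, namely Gbe1, Gys1, Pgm1 and Pygl, beside the 7.35% of all genes, and pyruvate entry to mitochondria had 0 of 12 in either direction.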

How the data were processed

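RNA from 5 cell-line libraries was prepared with a TruSeq kit and sequenced on an Illumina HiSeq. The authors deposited 1 table for each library, with the estimated count, often not a whole number, and the FPKM of every RefSeq transcript listed. The lowest FPKM listed was 0.01. The aligner, counting program, build and strand setting are not given in the sources used here. Estimated counts and FPKM were summed per NCBI gene, and 17866 of 17923 genes matched a RefSeq symbol. Rounded counts were fitted with edgeR 4.0.16 in R 4.3.3 (TMM, filterByExpr, glmQLFit, glmQLFTest), 13240 genes, Benjamini-Hochberg adjustment, threshold 0.05. The TMM factors were 0.842 and 0.735 in wt and 1.085, 1.222 and 1.219 in null. CPM are on the TMM scale and per-library differences use a pseudocount of 0.1. FPKM was used to compare levels between genes.

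The members and lists were chosen with earlier results of these data known. Values in every library are given for members whose mean FPKM differs at least 2-fold between the groups, for isozyme sets and for hypoxia factors, and up to 5 other pathway genes per direction are named by smallest unadjusted p among those with p under 0.05, a group mean of at least 1 FPKM and groups that do not overlap in CPM. Values of further members were added. The alternatives were DESeq2 1.42.0, no count filter, 10 counts or more in each library, limma-trend (limma 3.58.1) on log2(FPKM + 0.1), with pseudocounts of 0.01 and 1 and without the filter of 0.5 FPKM in 2 libraries, each library left out, and a replicate block. The fits were tested on simulated data. Promoter letters were searched in RefSeq windows of GRCm38.p6, and the Pkm exons come from the mouse reference of GRCm38. Sequences are reference sequences, since the build of the files is not known.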

Additional observations from a re-analysis of the deposited data

How the results depend on the processing

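Of the 39 genes, 30 kept the sign of their log2 fold change under every alternative that tested them, 26 of them below 0. The sign changed under at least 1 alternative for Slc2a1, Slc2a3, Slc16a1, Hk1, Pfkm, Pfkfb3, Egln1, Vegfa and P4ha2. The median of the 39 was -1.02, -1.02 and -0.99 with limma on log2 FPKM with 0.1, 0.01 and 1 added and -0.91 without a filter. Over the genes shared by the fits the median of all genes was 0.61 with limma on log2(FPKM + 0.1), 0.13 with DESeq2 and 0.21 with edgeR. Leaving out each library gave medians from -1.93 (without wt replicate 1) to -0.84 (without wt replicate 2), and -1.17 without null replicate 2, and 20 to 28 genes lower and 3 to 4 higher in every remaining null library, beside 22.4% to 26.8% and 28.2% to 32.5% of all genes. At an adjusted p under 0.05, DESeq2 called 1113 genes higher and 487 lower, where edgeR called 0, and 1 lower among the other pathway genes. The other calls were 4 lower with no count filter, 1 lower with at least 10 counts, and 1 higher with 5, 3 and 7 lower with limma at the pseudocounts 0.1, 0.01 and 1. The cause was not tested. limma without a filter and edgeR without any single library called 0 in either direction. Same-numbered wt and null libraries deviated from their group means with correlations of -0.121 and -0.115. With 2 wt libraries the wt deviations mirror each other, and null replicate 3 has no wt partner. This check therefore cannot decide whether the libraries were paired by number. Replicate 1 of both groups was labelled as grown without TSH. With the replicate block 0 genes were called, the median was -1.60, and the log2 fold changes of Slc16a3 and Hif1a were -7.55 and 0.64. That fit compared only null replicates 1 and 2 with wt, since replicate 3 had no wt library. It left little with which to measure the spread, so nothing is read from its 0 calls. Car9 and Epas1 could not be fitted with at least 10 counts in every library, and their values in the lower group rest on few counts.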

Other observations

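Vegfa was listed as 6 transcripts. Its transcript of 3475 bases held 48.4% and 52.2% of the summed FPKM in wt and 50.4%, 43.9% and 49.2% in null. The transcript of 3547 bases held 9.89% and 7.45% in wt and 25.2%, 17.2% and 7.21% in null, and that of 3343 bases 39.6% and 39.4% in wt and 21.2%, 38.1% and 42.1% in null. null replicate 1 thus had the highest share of the 3547-base transcript and the lowest of the 3343-base transcript. The division of reads between such overlapping transcripts is an estimate.

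A pair of hypoxia targets outside the 39 genes were high in null replicate 3, and these were picked after their values were seen. Lox, which crosslinks collagen, had an FPKM of 24.6 and 50.6 in wt and 0.95, 20.7 and 119 in null. Angptl4, an inhibitor of lipoprotein lipase, had 1.85 and 3.27 in wt and 4.91, 1.44 and 29.9 in null. The groups overlapped for both genes.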
